A study of Drosophila melanogaster with 12 samples.

Results

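The second day of free run was compared with the first in the subjective thermophase, the part of the cycle that had been warm, on 6 of the 12 arrays of a time course in fly heads. The 3 arrays of day 1 were those of AA14, AA18 and AA22, and the 3 of day 2 were those of AA38, AA42 and AA46. They were paired by time of day, at 14, 18 and 22 h, so that each pair lay 24 h apart. AA counts the hours from the start of the subjective cryophase, the formerly cold part of the cycle.

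All flies were adult Drosophila melanogaster of the strain cn bw, which carries mutations in the eye pigment genes cinnabar and brown. They were kept at 25 °C in darkness, then under a daily alternation of 12 h at 18 °C and 12 h at 25 °C, and were collected in darkness at constant 25 °C. Both days thus shared the genotype, the darkness and the temperature at collection, and differed in the time since the thermocycle had ended, in the age of the flies and in the time since any handling, which cannot be told apart here. Each array held RNA from the pooled heads of 1 collection, whose sex ratio the labels do not give, and nothing states that collections came from separately reared flies. The p-values therefore measure the spread between these arrays.

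Fly heads hold, besides brain and retina, a layer of fat body, the organ that stores energy, makes yolk and storage proteins and releases antimicrobial peptides into the hemolymph. The signalling pathways Toll and Imd switch on these peptides. Temperature cycles can set the circadian clock, in which Clock and Cycle switch on period and timeless, whose proteins then repress them. In constant conditions such rhythms run on, while transcripts that respond to feeding, infection or age can drift from day to day.

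The array of AA46 stood apart. Its mean correlation with the other arrays across probe sets was 0.989, against 0.994 to 0.996 for the others, and its 3 probe sets for 18S rRNA lay at 4.09 log2 on average, against 2.78 to 2.99 log2 elsewhere. At 14 h, 0.484% of the 11156 tested probe sets differed between days by more than 0.5 log2, and at 18 h 0.529% did. At 22 h, the pair that holds AA46, the share was 4.58%. Day differences correlated across probe sets at r = 0.284 between the 14 and 18 h pairs, at 0.0216 between 14 and 22 h and at -0.0452 between 18 and 22 h, where probe sets are not independent replicates. The main results are therefore also given without the 22 h pair.

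Among markers of the labelled tissue, the mean level of 5 photoreceptor genes (Arr1, Arr2, trp, trpl and inaD) lay at 11.59 log2 or more on all 6 arrays, while the mean of 5 testis and male gland genes lay at 3.64 to 3.79 log2. The mean of 3 gut genes lay at 7.55 to 7.65 log2 on day 1 and 7.55 to 7.74 log2 on day 2, and that of 4 neuronal genes at 5.33 to 5.43 and 5.25 to 5.43 log2. The gut mean was raised by LManII, at 9.6 to 9.8 log2, while Jon25Bii and Jon65Aiv lay between 6.3 and 6.8 log2. The neuronal mean was lowered by elav, whose probe set, at 2.85 to 3.54 log2, was below the filter. The testis mean was lowered by Acp26Aa, Acp36DE and dj, at 2.19 to 2.81 log2 and below the filter. Mst87F lay at 5.9 to 6.2 log2 and SP at 4.9 to 5.2 log2. The means of the gut, neuronal and testis lists therefore do not rank the tissues.

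**Figure D1:**
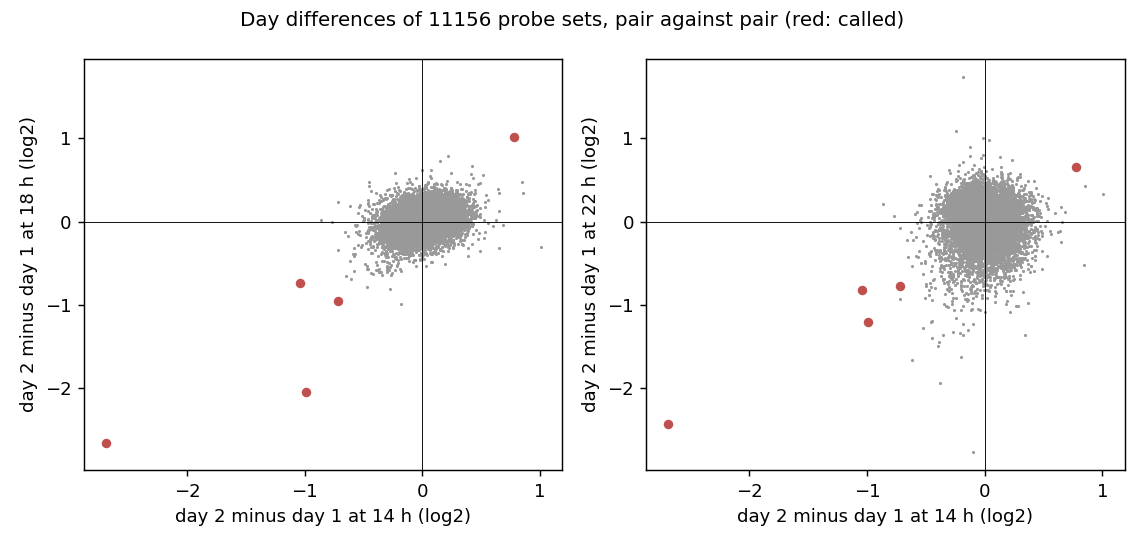
Day 2 minus day 1 difference (log2) of every tested probe set at 18 h (left) and at 22 h (right) against that at 14 h, with the 5 called probe sets in red. The points of the 14 and 18 h pairs lean along the diagonal, while the 22 h pair spreads more widely (SD 0.249, against 0.167 at 14 h and 0.155 at 18 h), and fit lies far below zero in both panels.

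Few transcripts differed between days beyond the spread of the pairs. In the paired limma fit, 1 probe set was higher on day 2 (0.00896% of those tested) and 4 were lower (0.0359%), 5 in all (0.0448%), at a Benjamini-Hochberg adjusted p under 0.05, while 627 (5.62%) had an unadjusted p under 0.05, 251 (2.25%) of them higher and 376 (3.37%) lower. The 4 lower ones were fit, which encodes a female-biased fat body protein released after protein feeding, Obp99a, an odorant-binding protein, DptB, the antimicrobial peptide Diptericin B of the Imd pathway, and the unnamed probe set 143443_at. The higher one was that of phu. All 5 were also called in the fits without the 22 h pair. Without the 14 h pair, which leaves 2 pairs, fit and 143443_at were called, and without the time-of-day block fit alone.

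The transcript of fit showed the largest difference of all tested probe sets. It stood at 9.55, 9.49 and 9.00 log2 at AA14, AA18 and AA22, and at 6.86, 6.83 and 6.57 log2 at AA38, AA42 and AA46. Every array of day 2 lay more than 2 log2 units below every array of day 1. The mean fell by 2.59 ± 0.09 log2 (SE, n = 3 pairs; 95% interval -2.79 to -2.39), which is 6.03-fold, with a limma adjusted p of 6.2e-07. Without the 22 h pair the difference was -2.67 log2 (limma adjusted p = 3.3e-05). In the subjective cryophase fit was at 9.76, 10.52 and 9.69 log2 on day 1 and at 7.46, 8.56 and 6.64 log2 on day 2, a difference of -2.44 log2 (limma adjusted p = 0.000105).

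Obp99a stood at 10.08, 10.39 and 10.63 log2 on day 1 and at 9.05, 9.66 and 9.81 log2 on day 2. Levels were lowest at 14 h and highest at 22 h on both days, and the groups did not overlap. It fell by 0.86 ± 0.09 log2 (SE, n = 3 pairs), or 1.82-fold, with a limma adjusted p of 0.0133, and the value without the 22 h pair was -0.88 log2. A second odorant-binding gene, Obp57c, differed by -0.57 log2 and did not pass (limma adjusted p = 0.194). Of 26 measured odorant-binding genes, 5 were lower and 2 higher at an unadjusted p under 0.05, among them Obp18a at -0.42 log2 and Obp56a at 0.31 log2. All 3 values of day 2 lay below all of day 1 in 7 of these genes (26.9%), against 5.96% of all 8909 tested genes. Over all tested genes 276 (3.10%) were lower and 209 (2.35%) higher at that p, and the median difference was 0.008 log2 with 3 pairs and 0.005 log2 without the 22 h pair. The odorant-binding median was -0.03 log2, and -0.05 log2 without the 22 h pair.

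DptB measured 9.48, 9.33 and 8.83 log2 on day 1 and 8.76, 8.38 and 8.06 log2 on day 2. Within each day the level was highest at 14 h and lowest at 22 h. The fall of 0.81 ± 0.09 log2 (SE, n = 3 pairs), or 1.75-fold, had a limma adjusted p of 0.0133 and was -0.83 log2 without the 22 h pair. Of 8 measured antimicrobial peptide genes 2 (25%) were lower and 2 (25%) higher at an unadjusted p under 0.05, against 3.10% and 2.35% of all tested genes. The median of the 8 was 0.04 log2 (all tested genes 0.008 log2). Def, which encodes Defensin, was 0.29 log2 and CecB, a cecropin, 0.21 log2 higher on day 2, Drs, which encodes the antifungal Drosomycin, was 0.25 log2 lower, and none of these passed the test.

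The Bomanins, short peptides secreted on Toll activation, gave differences of both signs. BomS6 stood at 10.75, 10.88 and 11.05 log2 on day 1 and at 10.33, 10.26 and 10.26 log2 on day 2, a difference of -0.61 log2 (limma adjusted p = 0.1005). BomS5 stood at 12.19, 12.19 and 12.20 log2 on day 1 and at 11.82, 11.59 and 11.59 log2 on day 2, a difference of -0.53 log2 (limma adjusted p = 0.152). In both genes the days were fully separated. In the fit without the 22 h pair that borrowed its spread from the cryophase pairs, both passed, with limma adjusted p of 0.0281 for BomS6 and 0.0357 for BomS5. Both also passed in the fit on all 12 arrays, which kept the 22 h pair (limma adjusted p = 0.0226 and 0.0317). BomBc2 lay 0.28 log2 higher on day 2, and the other 6 of the 9 measured genes of this group had unadjusted p over 0.05, with a median of -0.06 log2 over the 9 (all tested genes 0.008 log2). Among 14 recognition and pathway genes 3 were higher at that threshold and none lower, namely GNBP3, a recognition protein for fungal glucans, by 0.24 log2, the NF-kappaB factor Rel by 0.20 log2 and the serpin nec by 0.19 log2, without passing adjustment. Their median was 0.05 log2, against 0.008 log2 for all tested genes, of which 2.35% were higher and 3.10% lower at that p.

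The probe set 143443_at, to which the annotation gives no gene symbol, measured 8.16, 8.35 and 7.15 log2 on day 1 and 7.17, 6.31 and 5.95 log2 on day 2. Its groups overlapped, since AA22 lay just below AA38, but each pair moved down. The difference was -1.41 log2 (95% interval -1.78 to -1.04; limma adjusted p = 0.0146), or 2.66-fold. At 14, 18 and 22 h the pairs differed by -0.993, -2.045 and -1.201 log2, so that the interval left out the 14 and 18 h pairs. It rests on limma's moderated variance, which is drawn towards that of the other probe sets. The probe set lost the call under repeated quantile normalization, under a trended, robust prior and without the time-of-day block.

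The transcript of phu was the only one called higher. It stood at 8.48, 8.10 and 8.26 log2 on day 1 and at 9.26, 9.11 and 8.91 log2 on day 2. The lowest array of day 2 lay above the highest of day 1. It rose by 0.82 ± 0.10 log2 (SE, n = 3 pairs), or 1.76-fold, with a limma adjusted p of 0.0146, and by 0.90 log2 without the 22 h pair.

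**Figure D2:**
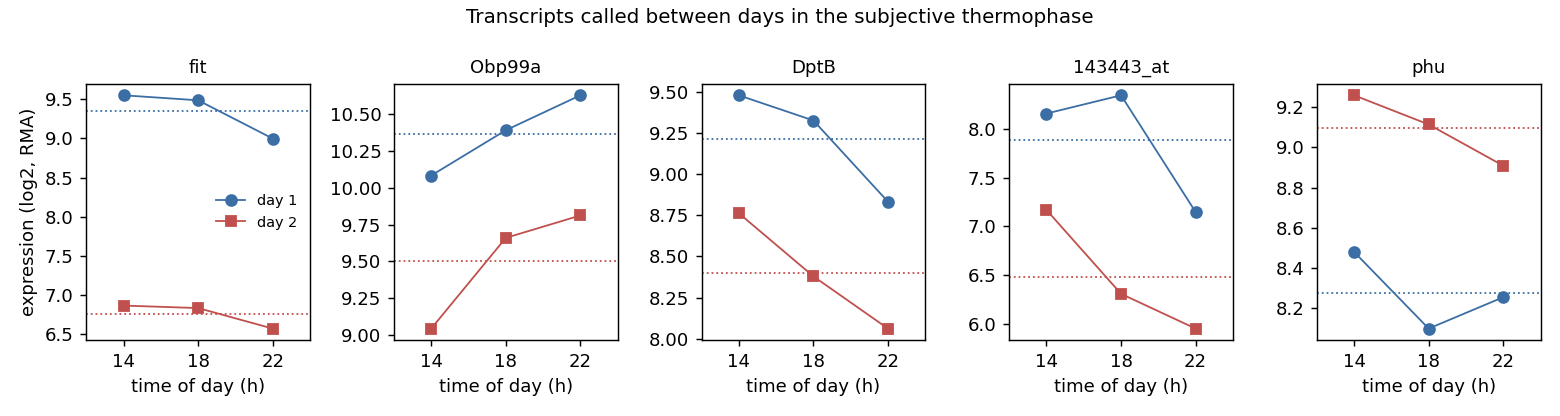
Level (log2) of the 5 called probe sets against time of day (h), with day 1 in blue circles, day 2 in red squares and the mean of each day as a dotted line; axes differ between panels. On day 2 fit stays between 6.57 and 6.86 log2 in the thermophase, against 9.00 to 9.55 log2 on day 1, and phu is the one that lies higher on day 2.

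Whether the day difference was particular to the thermophase was tested by the contrast of the day effects in both parts of the cycle, over all 12 arrays. No probe set was called (0 of 11156 by limma, lowest adjusted p 0.999), and 288 (2.58%) had an unadjusted p under 0.05. For fit the contrast was -0.16 log2 (95% interval -0.64 to 0.33), for DptB -0.05 log2 (-0.31 to 0.21) and for Obp99a 0.18 log2 (-0.14 to 0.50). These intervals leave room for differences of up to about those bounds. phu was 0.49 log2 higher on day 2 in the cryophase, and its contrast of 0.33 log2 (95% interval 0.06 to 0.59) did not pass adjustment.

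The genes next in order did not pass the test with 3 pairs. The lowest adjusted p among them belonged to robl, a dynein light chain, at 8.26, 8.43 and 8.33 log2 on day 1 and 7.78, 7.65 and 7.45 log2 on day 2. Its difference was -0.72 ± 0.10 log2 (SE, n = 3 pairs; limma adjusted p = 0.057). It was called in the fit on all 12 arrays (limma adjusted p = 0.0115) and in that on 10 arrays without the 22 h pair (0.0199). NdufA3 and CG11741, given below, were also called in these fits. Several others encode small proteins of the mitochondrion or the ribosome. Tim9a, a chaperone of mitochondrial import, differed by -0.68 log2 on a dim probe set (mean 4.95 log2). NdufA3, named for a subunit of complex I, differed by -0.58 log2. RpL32 stood at 12.91, 12.95 and 12.81 log2 on day 1 and 12.44, 12.38 and 12.43 log2 on day 2, a difference of -0.47 log2 (limma adjusted p = 0.192). RpS28b also differed by -0.47 log2, CG11741 by -0.54 log2, CG8654 by -0.48 log2 and se (sepia), of the red eye pigment pathway, by -0.50 log2. CG42336 differed by -0.46 log2, but a further probe set of that gene gave -0.06 log2.

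Of the genes higher on day 2, Tps1, the trehalose-6-phosphate synthase that makes the main blood sugar of insects, stood at 11.43, 11.39 and 11.59 log2 on day 1 and at 11.80, 11.84 and 11.83 log2 on day 2. The difference of 0.36 log2 did not pass (limma adjusted p = 0.416), although the days did not overlap. CG4783 lay 0.54 log2 higher, eIF3a, a subunit of translation initiation factor 3, by 0.41 log2, and fau and Nepl18 by 0.39 log2 each. Amy-d, an amylase, lay 0.38 log2 higher, a value its near-identical copy Amy-p may share in. Sumo, the small ubiquitin-like modifier, was at 0.31 log2. For Non1, at 0.37 log2, and CSN7, a COP9 signalosome subunit, at 0.32 log2, further probe sets of the same gene gave only 0.12 and -0.03 log2. The remaining 5 (CG9757, CG4364, Culd, CG6495 and CG6290) lay between 0.32 and 0.38 log2.

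**Figure D3:**
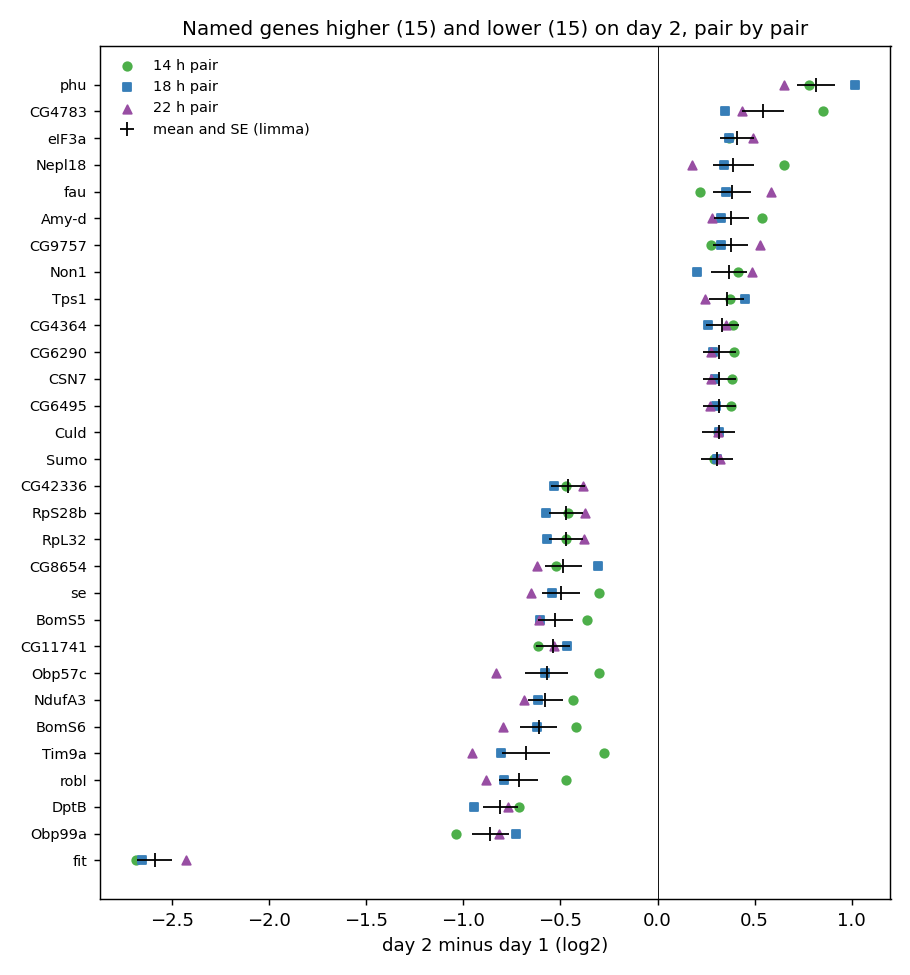
Day 2 minus day 1 differences (log2) in the 14, 18 and 22 h pairs for the 15 named genes higher and the 15 lower on day 2, with the mean and its SE in black. All pairs of a gene lie on the same side of zero by the rule that chose them, and fit stands apart at -2.69, -2.66 and -2.43 log2.

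Ribosomal protein genes lay mostly lower on day 2. Of 34 measured cytosolic ribosomal protein genes, 18 (52.9%) were lower in all 3 pairs, against 10.7% of all tested genes, and 12 (35.3%) were lower and 1 higher at an unadjusted p under 0.05, against 3.10% and 2.35% of all tested genes. None passed adjustment with 3 pairs. RpLP2, a protein of the ribosomal stalk, differed by -0.50 log2, RpL29 by -0.38 log2 and RpS12 by -0.37 log2, whereas RpL37-1 lay 0.19 log2 and RpL3 0.17 log2 higher. In the fit on 10 arrays without the 22 h pair 3 members were called lower, RpL32, RpS28b and RpLP2. The list's median was -0.09 log2 with all pairs and -0.14 log2 without the 22 h pair, against 0.008 and 0.005 log2 for all tested genes. In the cryophase it was -0.16 log2.

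Of 64 mitochondrial ribosomal protein genes 8 (12.5%) were lower and none higher at an unadjusted p under 0.05, against 3.10% and 2.35% of all tested genes, led by mRpL23 at -0.41 log2 and mRpS18A at -0.32 log2. All 3 day 2 values lay below those of day 1 in 16 of them (25%), against 5.96% of all tested genes. This rested in part on the 22 h pair. The median of the list was -0.05 log2 with 3 pairs but -0.0145 log2 without that pair, with 0.055 log2 at 14 h, and 14 (21.9%) of the genes were then higher and 19 (29.7%) lower in both pairs, against 30% and 27.9% of all tested genes. Of 62 oxidative phosphorylation genes, which encode the respiratory chain and ATP synthase, 7 (11.3%) were lower and 1 higher at that p, and 12 (19.4%) were separated downward, against 5.96%. Their median was -0.03 log2, and -0.04 log2 without the 22 h pair, where 24 (38.7%) were lower and 10 (16.1%) higher in both pairs. The complex I subunit ND-MWFE differed by -0.55 log2, the complex III subunit UQCR-14 by -0.35 log2 and the cytochrome oxidase subunit COX8 by -0.26 log2. None of these genes passed adjustment. Of 34 proteasome genes none had an unadjusted p under 0.05 in either direction, with a median of 0.05 log2.

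**Figure D4:**
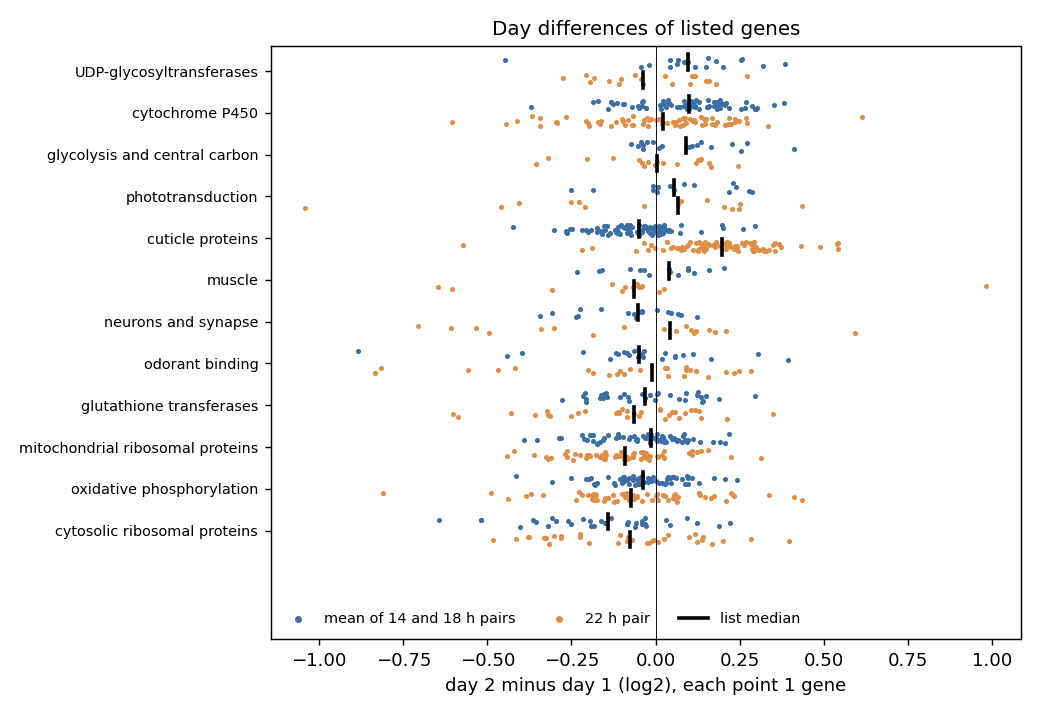
Day 2 minus day 1 difference (log2) of each measured gene in 12 lists, as the mean of the 14 and 18 h pairs (blue) and in the 22 h pair (orange), with list medians as black bars. Cytosolic ribosomal protein genes sit mostly left of zero in both (medians -0.14 and -0.08 log2), while cuticle protein genes turn from -0.05 to 0.20 log2.

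These lists hold short genes, and the shares of genes lower and higher on day 2 varied with gene span over the whole array. Among the class of 1780 genes with the shortest span (177 to 1248 bp, introns included, in the RefSeq annotation of Release 6), 118 were lower and 29 higher at an unadjusted p under 0.05, or 6.63% and 1.63%. The median difference of this class was -0.03 log2 at 14 h and -0.07 log2 at 18 h, but 0.065 log2 at 22 h. It was -0.0057 log2 with 3 pairs and -0.047 log2 without the 22 h pair. In the middle class of 5 (2048 to 3452 bp) 25 were lower and 57 higher. In the class of the longest genes, from 8001 bp, 74 were again lower and 27 higher. The median span was 1109 bp for the cytosolic ribosomal protein genes and 2587 bp for all tested genes. The called genes fit (531 bp), Obp99a (678 bp) and DptB (505 bp) also fell in the shortest class, as did robl (658 bp). CG42336 (2985 bp) and CG8654 (5654 bp), also lower, did not. The median span was 787 bp for the odorant-binding and 1030 bp for the glutathione transferase genes. The part of gene length in the lower values of these genes and lists, and of the ribosomal and mitochondrial lists, was not tested.

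**Figure D5:**
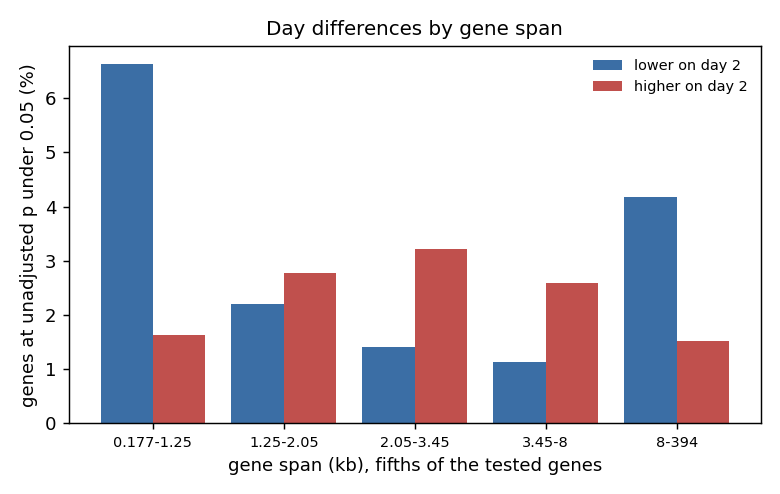
Share of genes (%) with an unadjusted limma p under 0.05, higher or lower on day 2, in 5 classes of gene span (kb) of nearly equal size. Lower values are most frequent in the shortest (6.63%) and longest (4.17%) genes, and higher ones in the middle class (3.21%).

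The transduction genes of the retina contained more higher than lower values. trp, the light-gated channel of the photoreceptors, stood at 10.94, 11.10 and 11.11 log2 on day 1 and at 11.24, 11.37 and 11.33 log2 on day 2. Each array of day 2 exceeded each of day 1, but the difference of 0.27 log2 did not pass (limma adjusted p = 0.66). Its scaffold inaD lay 0.24 log2 and the second channel trpl 0.23 log2 higher, while Galphaq, the G protein that couples rhodopsin to phospholipase C, was at -0.28 log2. The Galphaq probe set was dim, with a mean of 4.95 log2 over the 12 arrays. Its pairs differed by -0.15, -0.22 and -0.46 log2 at 14, 18 and 22 h. Of 15 measured genes 4 (26.7%) were higher and 1 (6.67%) lower at an unadjusted p under 0.05, against 2.35% and 3.10% of all tested genes. The list's median was 0.03 log2 (all tested genes 0.008 log2), and 5 of its genes (33.3%) were fully separated upward, against 8.28% of all tested genes. The mean of the 5 photoreceptor markers lay at 11.59 to 11.71 log2 on day 1 and 11.82 to 11.88 log2 on day 2. These markers include trp, trpl and inaD, while the others, Arr1 and Arr2, differed by only 0.03 and 0.08 log2. In pooled heads a change in the number of cells of a type and a change in RNA per cell cannot be told apart.

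Detoxification enzymes modify foreign compounds, first by oxidation and then by conjugation. Of 71 measured cytochrome P450 genes 6 (8.45%) were higher and 1 (1.41%) lower at an unadjusted p under 0.05, against 2.35% and 3.10% of all tested genes. In all 3 pairs 18 (25.4%) were higher, against 14.8% of all tested genes, and 10 (14.1%) were separated upward, against 8.28%. Cyp6a13 lay 0.31 log2 and Cyp6g1 0.26 log2 higher, while Cyp4e3 was at -0.40 log2. Without the 22 h pair 37 (52.1%) of the P450 genes were higher in both pairs and 11 (15.5%) lower, against 30% and 27.9% of all tested genes. Their median was 0.07 log2, and 0.10 log2 without the 22 h pair. Of 19 UDP-glycosyltransferase genes 14 (73.7%) were higher in both of these pairs and 1 (5.26%) lower, against the same 30% and 27.9%. Their median was 0.06 log2 with 3 pairs and -0.04 log2 at 22 h, with Ugt35A1 at 0.31 log2 and Ugt35B1 at 0.26 log2 (0.13 log2 on a further probe set) over 3 pairs. Of 33 glutathione transferase genes 5 (15.2%) were lower and none higher at that p, against 3.10% and 2.35%, with a median of -0.04 log2, among them GstE7 at -0.38 log2 and GstO1 at -0.29 log2. None of these genes passed adjustment.

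In carbohydrate metabolism 4 of 19 genes of glycolysis and central carbon (21.1%) were higher and none lower at an unadjusted p under 0.05, against 2.35% and 3.10% of all tested genes. The list's median was 0.03 log2 with 3 pairs and 0.09 log2 without the 22 h pair, against 0.008 and 0.005 log2. Besides Tps1 they were Glyp, glycogen phosphorylase, at 0.22 log2, the glycolytic enzyme gene Pglym78 at 0.22 log2 and AGBE, the glycogen branching enzyme, at 0.19 log2. Mal-B2, a maltase, lay 0.31 log2 higher and was called in the fit on 10 arrays without the 22 h pair (limma adjusted p = 0.0455) but not with 3 pairs. Of the yolk protein genes, which head fat body transcribes in females, Yp2 stood at 13.69, 13.69 and 13.62 log2 on day 1 and 13.40, 13.58 and 13.32 log2 on day 2. Yp2 differed by -0.23 log2, Yp3 by -0.22 log2 and Yp1 by -0.12 log2, none of which passed. Lsp2, a storage protein gene, was at -0.02 log2, and Tsf1, which encodes a secreted transferrin, lay 0.25 log2 higher with the days fully separated, also without passing (limma adjusted p = 0.703). Of 18 measured fat body and yolk genes 6 (33.3%) were higher and 6 (33.3%) lower in all 3 pairs, against 14.8% and 10.7% of all tested genes. The list's median was -0.0037 log2. The mean of 5 fat body markers lay at 12.77 to 12.91 log2 on day 1 and at 12.15 to 12.27 log2 on day 2, a difference of -0.64 log2 that was -0.15 log2 over the other 4 once fit was left out.

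None of the core clock genes passed the test. per (period) stood at 6.43, 6.54 and 6.29 log2 on day 1 and at 6.63, 6.45 and 6.32 log2 on day 2, a difference of 0.05 log2. tim (timeless) stood at 9.27, 9.57 and 9.49 log2 on day 1 and at 9.49, 9.55 and 8.91 log2 on day 2. Its difference of -0.12 ± 0.13 log2 (SE, n = 3 pairs; limma adjusted p = 0.990) turned to 0.10 log2 without the 22 h pair, while a further tim probe set gave -0.22 log2 with 3 pairs and -0.0045 log2 without that pair. The repressor gene vri was at 9.08, 9.03 and 8.72 log2 on day 1 and 9.09, 8.93 and 8.67 log2 on day 2, so that the pairs differed by at most 0.10 log2.

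In 2 clock genes the days did not overlap. Pdp1, the activator gene that acts opposite vri, stood at 6.41, 6.45 and 6.57 log2 on day 1 and 6.31, 6.34 and 6.16 log2 on day 2 (difference -0.21 ± 0.10 log2, SE, n = 3 pairs; limma adjusted p = 0.905). cry, the gene for the blue-light photoreceptor of the clock, stood at 9.33, 9.25 and 9.26 log2 on day 1 and 9.41, 9.42 and 9.46 log2 on day 2 (difference 0.15 ± 0.09 log2; limma adjusted p = 0.927). Over all tested probe sets 7.9% were separated upward and 5.93% downward. cwo differed by -0.31 log2, almost all of it from AA46, where it stood at 5.52 log2 against 6.21 to 6.43 log2 on the other 5 arrays, and a further probe set gave -0.13 log2. Clk, at a mean of 4.06 log2, did not pass the filter and was not tested.

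Some transcripts were called only where the 22 h pair was left out, and they were named after their values had been seen. The fit on the 4 remaining arrays called 47 probe sets higher (0.421%) and 91 lower (0.816%), 138 in all (1.24%), but gave every probe set the same variance. In the fit on 10 arrays, 8 probe sets were higher (0.0717%) and 27 lower (0.242%), 35 in all (0.314%). The counts of both fits include the 5 probe sets called with 3 pairs. Others, such as robl and BomS6, were also called on all 12 arrays, with the 22 h pair kept. Among the 8 higher on 10 arrays, dlg1, the gene of the synaptic scaffold Discs large, differed by 0.43 and 0.52 log2 at 14 and 18 h. At 22 h dlg1 differed by -0.41 log2. CG13428 differed by 0.84, 0.47 and -0.52 log2 in the 3 pairs, and yps, which encodes a Y-box RNA-binding protein, by 0.42, 0.67 and -0.60 log2. In these 3 genes the 22 h pair ran against the others.

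At 22 h, the pair of AA46, the medians of several lists stood apart from those at 14 and 18 h. The median difference of 87 cuticle protein genes was -0.09 log2 at 14 h, -0.04 log2 at 18 h and 0.20 log2 at 22 h. Without the 22 h pair 44 of them were lower in both pairs and 7 higher (50.6% and 8.05%), against 27.9% and 30% of all tested genes (29.2% and 28.4% of all tested probe sets). Digestive protease genes had a median of 0.22 log2 and chorion genes of 0.24 log2 at 22 h, both below zero at 14 and 18 h. Chorion genes belong to the ovary, which heads do not hold, and the mean of 7 ovary and chorion markers lay between 6.12 and 6.27 log2 on day 1 and between 6.09 and 6.28 log2 on day 2. Dim probe sets as a whole shifted in the same way. When the tested probe sets were divided into 5 classes by mean level, the median difference at 22 h was 0.095 log2 in the dimmest class and -0.04 log2 in the brightest, whereas at 14 h it was -0.04 and 0.07 log2. The part of this shift in the list medians was not tested.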

How the data were processed

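The authors ran RMA (background subtraction, quantile normalization and median polish) on Affymetrix Drosophila Genome 1 arrays, and the deposited table holds its log2 levels. No source used here gives the RMA version. Quantile normalization hides a shift shared by most transcripts. Of 14010 probe sets 44 controls were left out, and 11156 with more than 50% of their 12 values above the 20th percentile of their array were tested. Probe sets were named through the platform annotation, updated by gene identifier (RefSeq Release 6): 12443 had 1 symbol, 327 several and 1196 none. A gene was represented by its probe set with the highest mean.

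Day 2 and day 1 were compared by limma 3.58.1 (lmFit, eBayes; R 4.3.3) on the 6 thermophase arrays with time of day as a block, two-sided, with Benjamini-Hochberg adjustment over all tested probe sets. The pairing comes from the collection times, not from replicate numbers in the labels. Standard errors, intervals and p-values are moderated, and do not rest on the pairs of a probe set alone. In eBayes the variance of each probe set, with 2 residual degrees of freedom, was drawn towards a common value with 8.1 prior degrees of freedom. The fit was repeated without the 22 h pair. With 4 arrays eBayes gave every probe set the same variance, so that p followed the size of the difference alone, and a fit on 10 arrays, with the spread taken also from the cryophase pairs, was added after the data were seen. Adjusted p-values without the 22 h pair are those of the latter. The thermophase and cryophase day effects were contrasted over 12 arrays.

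Genes named were the 15 higher and 15 lower among called probe sets with the same sign in 3 pairs, completed by the lowest unadjusted p, the core clock genes, and up to 4 members of each list at an unadjusted p under 0.05. The members and lists were chosen with earlier results of these data known. Lists are described by counts and medians beside those of all tested genes, with no test of a list. No sequences are given. Alternatives comprised no block, leaving out each pair, array weights, median centring, repeated quantile normalization, other filters, a trended and robust prior and fits on 10 or 12 arrays. The procedure was also run on simulated data with independent noise of the spread of the cryophase pairs. These held no outlying array, so they cannot show how the fit behaves with AA46. The number of arrays limits the precision.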

Additional observations from a re-analysis of the deposited data

Results flagged for a closer look

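In 3 of the 106 named probe sets every thermophase pair moved one way between days and every cryophase pair the other. Most were named by rules that use the thermophase pairs. The share of all tested probe sets with this pattern is not given here. CG9757 was 0.38 log2 higher on day 2 in the thermophase and differed by -0.22 log2 in the cryophase, a contrast of 0.59 log2. For Galphaq, the visual G protein subunit, the differences were -0.28 and 0.19 log2, a contrast of -0.47 log2. For CecB, a cecropin, they were 0.21 and -0.07 log2, a contrast of 0.28 log2. The probe sets of Galphaq and CecB were dim, at means of 4.95 and 4.50 log2 over the 12 arrays. None of these contrasts passed adjustment over the 11156 tested probe sets (limma adjusted p = 0.999 for each).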

How the results depend on the processing

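The number of probe sets called higher (1 with 3 pairs) was 0 without the replicate block, 8 in the fit on 10 arrays, 9 with array weights, 2 with a trended and robust prior and 0 to 47 when 1 pair was left out. The number called lower (4) was 1 without the replicate block, 27 on 10 arrays, 10 on 12 arrays, 61 with array weights, 34 with a trended and robust prior and 2 to 91 when 1 pair was left out. The counts of 47 higher and 91 lower without the 22 h pair, from 4 arrays, were 8 and 27 on 10 arrays. Only fit stayed called in every alternative: without the 14 h pair fit and 143443_at were left, and without the block fit alone. Direction turned in 4 genes. With each pair left out in turn, per ranged from -0.031 to 0.12 log2, tim from -0.30 to 0.10 log2 (the latter also on 10 arrays; 0.0035 log2 with array weights), CG13428 from -0.0235 to 0.66 log2 and yps from -0.0865 to 0.55 log2. Median centring changed no call among the 106 named probe sets. The contrast of thermophase and cryophase called none in any alternative. With 3 pairs, of which 1 holds an outlying array, small differences cannot be resolved.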
